A study of Mus musculus with 27 samples.

Results

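The 8 genes described here encode Nodal and activin pathway proteins and were chosen by symbol from the deposited RNA-seq count tables, as 8 of the 27080 genes listed in them. Nodal, Gdf3 and Inhbb encode ligands, Tdgf1 encodes the co-receptor Cripto, and Lefty1, Lefty2, Cer1 and Fst encode secreted inhibitors. The data are 12 RNA-seq libraries of J1 cells, a mouse ESC line grown without feeders on gelatin in serum and LIF. All groups had been infected with a lentivirus carrying an shRNA, with selection of knockdown cultures in puromycin. The non-targeting control (shNT, called shCon in the labels) had 3 libraries, shGas41-1 had 3 and shGas41-2 had 2, with knockdown (KD) cells harvested 8 days after infection. A further 2 libraries came from control-shRNA cells kept undifferentiated with LIF (EB day 0), and 2 from the same kind of cells grown as embryoid bodies (EBs) without LIF to day 6. No KD library was made at EB day 6. The study reports flattened colonies, weaker alkaline phosphatase staining and raised differentiation genes after KD, with Oct4, Sox2 and Nanog largely unaffected. It proposes that KD cells are likely in a state partway to differentiation. Below, undifferentiated refers to culture as ESCs with LIF (shNT, KD and EB day 0) and not to the state of the cells. The study's methods speak of biological repeats for its experiments, but the labels do not tie the libraries of a group to separate cultures, so p-values measure the spread between these libraries, which may be in part technical.

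Nodal and activins are secreted ligands of the TGF-beta family that bind type I and type II activin receptors and act through phosphorylated Smad2 and Smad3 with Smad4. Nodal and Gdf3 need the co-receptor Cripto, whereas activins do not. Lefty1 and Lefty2 are induced by Nodal signalling and block it, Cerberus (Cer1) binds Nodal outside the cell, and follistatin (Fst) binds activins. The pathway is active in mouse ESCs, and in the embryo it drives formation of the primitive streak, mesoderm and endoderm.

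Gas41, the YEATS domain protein encoded by Yeats4, was checked first. Yeats4 was measured at 56.6 ± 5.87 CPM (counts scaled to the library's total as CPM; SD, n = 3) in shNT cells, 4.24 ± 0.664 CPM (n = 3) with shGas41-1 and 8.18 ± 0.714 CPM (n = 2) with shGas41-2. The mRNA was thus reduced to 7.93% of shNT with shGas41-1 (log2 fold change -3.66, SE 0.19, adjusted p = 0.000375) and to 15.3% with shGas41-2 (log2 fold change -2.71, SE 0.13, adjusted p = 0.000934). Each shRNA sequence had 1 site in the gene, on the minus strand of chromosome 10 in the NCBIM37 (mm9) genome. The site of shGas41-1 is in an exon, in the UTR (chr10:116652513-116652533), and that of shGas41-2 is in coding sequence (chr10:116659320-116659340). Both are shown because they define the KD groups.
shGas41-1: gtagcattccacgacgttaag
shGas41-2: atcgttaagccaatcgtttat

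Libraries held between 59224537 and 81524773 counts, so that 3 counts, the limit that a count of 0 allows, corresponded to between 0.0368 and 0.0507 CPM (counting error only). The 8 pluripotency markers examined summed to between 4460 and 5390 CPM in the 10 undifferentiated libraries and to between 1220 and 1530 CPM at EB day 6, and none of them was at 0 in any library. On the RPKM scale, which divides by exon length, Tdgf1 was the highest of the 8 in every group, at a mean of 355 RPKM in shNT cells. It was followed in shNT cells by Inhbb (63.9 RPKM), Gdf3 (57.7 RPKM), Nodal (38.3 RPKM), Lefty2 (14.1 RPKM), Lefty1 (13.0 RPKM), Fst (1.64 RPKM) and Cer1 (0.0119 RPKM). The ranges of Inhbb and Gdf3 overlapped, as did those of Lefty2 and Lefty1, and the other neighbours in that order were separate. In EBs at day 6 the order was Tdgf1 (417 RPKM), Fst (143 RPKM), Lefty2 (45.8 RPKM), Nodal (38.6 RPKM), Lefty1 (24.9 RPKM), Gdf3 (7.11 RPKM), Cer1 (5.92 RPKM) and Inhbb (0.067 RPKM). Here the ranges of Lefty2 and Nodal overlapped, and so did those of Gdf3 and Cer1.

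**Figure D1:**
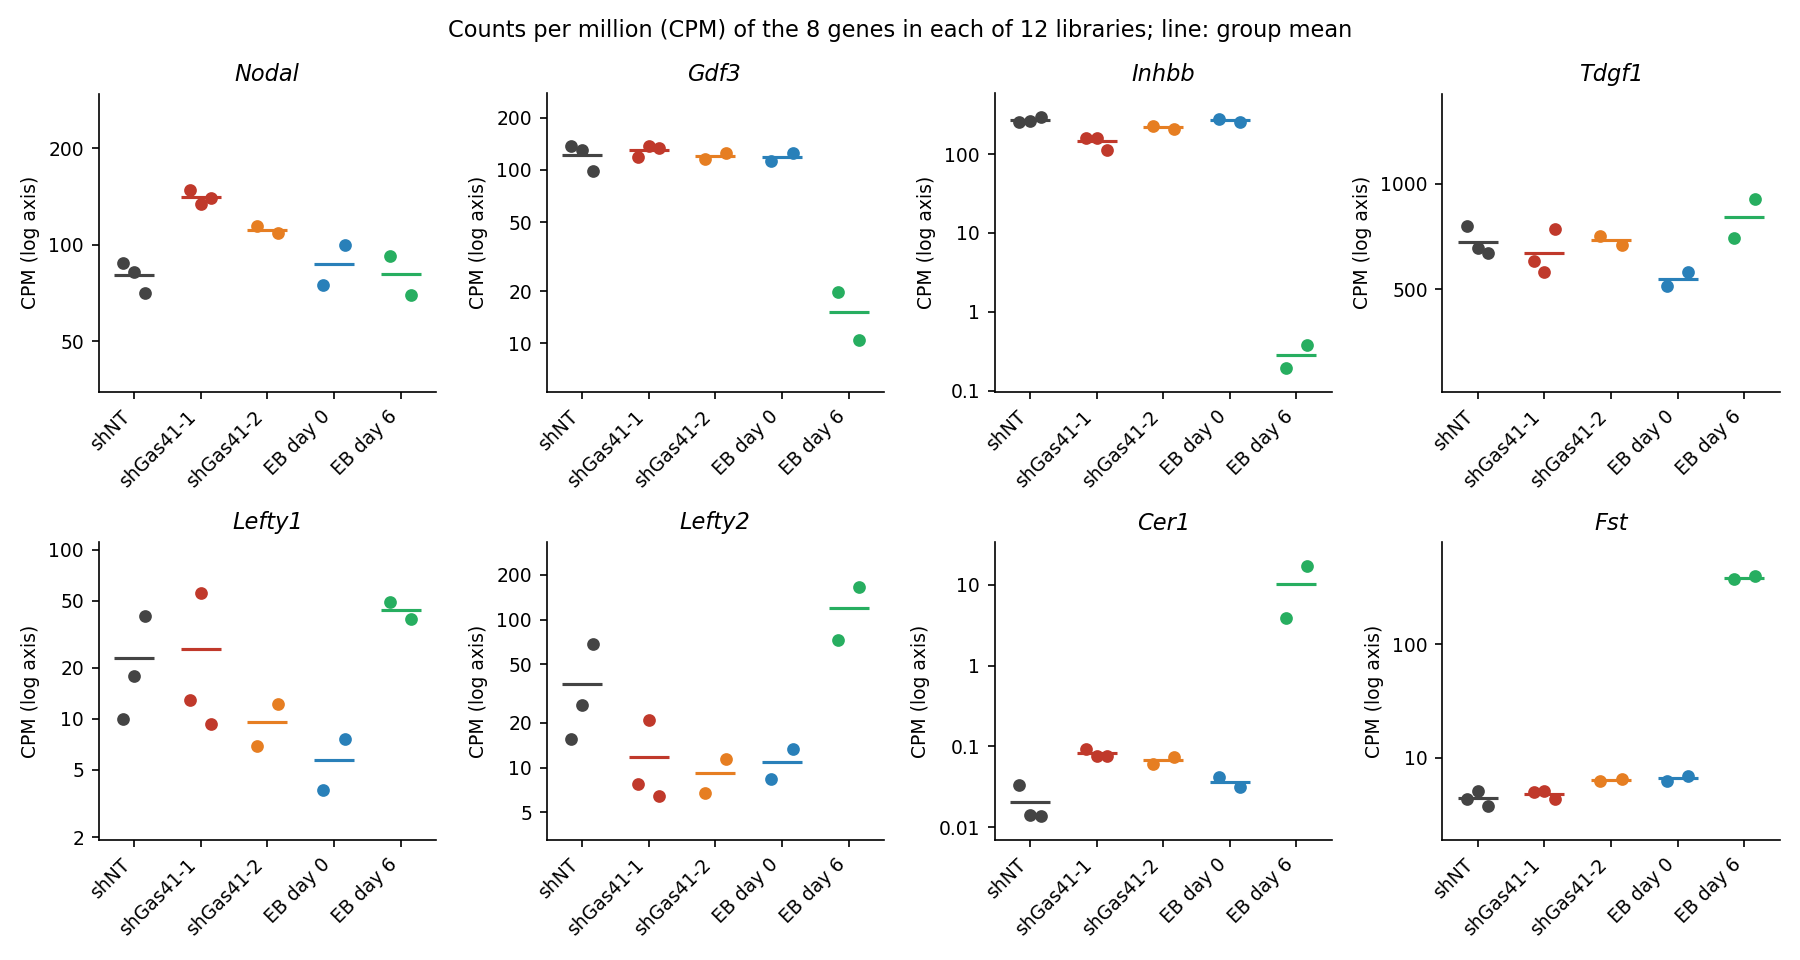
CPM of the 8 genes on log axes, with 1 point per library and a line at each group mean, for 3 shNT, 3 shGas41-1, 2 shGas41-2, 2 EB day 0 and 2 EB day 6 libraries. Inhbb and Gdf3 sit low at EB day 6, Fst and Cer1 sit high there, Nodal is raised in the 5 KD libraries, and Lefty1 and Lefty2 scatter within groups.

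The first question was whether loss of Gas41 changed these genes in cells kept in ESC culture. Calls followed the thresholds of the study, a fold change of at least 2 and an adjusted p of 0.05 or less. No gene among the 7 tested was called with either shRNA, against a background of 10.3% of all genes tested with shGas41-1 and 4.82% with shGas41-2. With the adjusted p alone, Nodal was higher and Inhbb lower with shGas41-1, and Nodal was higher with shGas41-2, where 18.5% and 9.91% of all genes passed. Cer1 was under the count filter in both comparisons. By DESeq2, which called 2072 and 947 genes, no member was called with either shRNA. At an unadjusted p of 0.05 in edgeR 3 members passed with shGas41-1, beside 6405 of 18274 genes, and 4 with shGas41-2, beside 5209 of 18405 genes. The same 3 shNT libraries entered both comparisons, so these are not independent of each other.

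Nodal, the ligand that gives the pathway its name (ENSMUSG00000037171, chr10:60880720-60888086, plus strand, NCBIM37), was measured in the shNT libraries at 87.6, 82.3 and 70.8 CPM. It stood at 148, 134 and 140 CPM with shGas41-1 and at 114 and 109 CPM with shGas41-2. All 5 KD libraries were above all 3 shNT libraries, and the shGas41-1 libraries were above those with shGas41-2. The fitted increase was 1.85-fold with shGas41-1 (log2 fold change 0.89, SE 0.13, adjusted p = 0.00399) and 1.46-fold with shGas41-2 (log2 fold change 0.55, SE 0.11, adjusted p = 0.0228). The direct comparison of the 2 shRNAs gave a log2 difference of -0.34 (SE 0.13, adjusted p = 0.628), which did not pass. Under 13 alternatives the adjusted p with shGas41-1 stayed between 1.12e-07 and 0.0323. With shGas41-2 it ranged between 3.36e-09 and 0.162 over 12 alternatives, and the adjusted p missed the threshold without shGas41-2 replicate 1 (0.162), without shGas41-2 replicate 2 (0.147) and without shNT replicate 2 (0.0860), with log2 fold changes of 0.53, 0.56 and 0.57. The EB day 0 libraries, which carry a control shRNA too, held 74.8 and 99.8 CPM of Nodal, so that 1 of them lay above the shNT range but below every KD library.

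Inhbb encodes the beta B subunit that forms activin B (ENSMUSG00000037035, chr1:121312042-121318825, minus strand). Its level was 258, 264 and 293 CPM in shNT cells, 162, 161 and 113 CPM with shGas41-1 and 229 and 209 CPM with shGas41-2. Every KD library was therefore below every shNT library, more so with shGas41-1. The level with shGas41-1 was 56.2% of shNT (log2 fold change -0.83, SE 0.14, adjusted p = 0.00679, between 1.47e-05 and 0.0437 over 13 alternatives). With shGas41-2 it was 85.2% of shNT (log2 fold change -0.23, SE 0.10), which did not pass (adjusted p = 0.160). Between the 2 shRNAs Inhbb differed by 0.60 on the log2 scale (SE 0.14, adjusted p = 0.301). That difference did not pass in edgeR, whereas it did in DESeq2 (log2 difference 0.61, adjusted p = 0.0427), and its adjusted p lay between 0.0427 and 1 over 12 alternatives.

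Gdf3 and Tdgf1 gave overlapping values in the control and KD groups. Gdf3, a ligand that can pair with Nodal (ENSMUSG00000030117, chr6:122555421-122560105, minus strand), was between 99.1 and 138 CPM in shNT cells, between 119 and 137 CPM with shGas41-1 and between 116 and 126 CPM with shGas41-2. Tdgf1 (ENSMUSG00000032494, chr9:110842114-110848662, minus strand) was between 634 and 756 CPM, between 559 and 742 CPM and between 668 and 710 CPM in the same order. The fitted log2 fold changes of Gdf3 were 0.16 (SE 0.16, adjusted p = 0.504) with shGas41-1 and 0.07 (SE 0.15, adjusted p = 0.805) with shGas41-2. For Tdgf1 they were -0.02 (SE 0.16, adjusted p = 0.946) and 0.10 (SE 0.10, adjusted p = 0.568). Neither gene passed the test in either KD.

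Among the inhibitors, Fst (ENSMUSG00000021765, chr13:115242470-115249159, minus strand) was low in all undifferentiated cells. It was measured at 4.37, 5.11 and 3.74 CPM in shNT cells, at 4.94, 5.13 and 4.31 CPM with shGas41-1 and at 6.27 and 6.50 CPM with shGas41-2. The shGas41-2 libraries lay above the shNT and shGas41-1 libraries, with a log2 fold change of 0.62 (SE 0.17) that just missed the threshold (adjusted p = 0.0575, between 0.000515 and 0.277 over 12 alternatives). It passed under 5 of these alternatives. They were the fit without shNT replicate 1 (log2 fold change 0.61, adjusted p = 0.0342), DESeq2 (0.62, adjusted p = 0.0178) and all 12 libraries in 1 fit (0.61, adjusted p = 0.0176). The others were no filter (0.61, adjusted p = 0.0492) and the replicate number as a block (0.51, adjusted p = 0.000515). With shGas41-1 the log2 fold change was 0.20 (SE 0.18, adjusted p = 0.455). The EB day 0 libraries, at 6.22 and 6.94 CPM, also lay above the shNT range.

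Cer1 (ENSMUSG00000038192, chr4:82527655-82531052, minus strand) was near the limit of detection in undifferentiated cells. It had 2, 1 and 1 counts in the shNT libraries, 7, 6 and 5 with shGas41-1, 5 and 6 with shGas41-2, and 3 and 2 at EB day 0. Every KD library held more Cer1 counts than every control library, but these are single-digit counts, and most were close to the floor of 3. The rate ratio over pooled counts was 4.15 with shGas41-1 (95% exact interval 1.37 to 16.8, 18 against 4 counts) and 3.42 with shGas41-2 (1.01 to 14.7, 11 against 4 counts). These intervals cover counting error only and hold no spread between libraries.

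**Figure D2:**
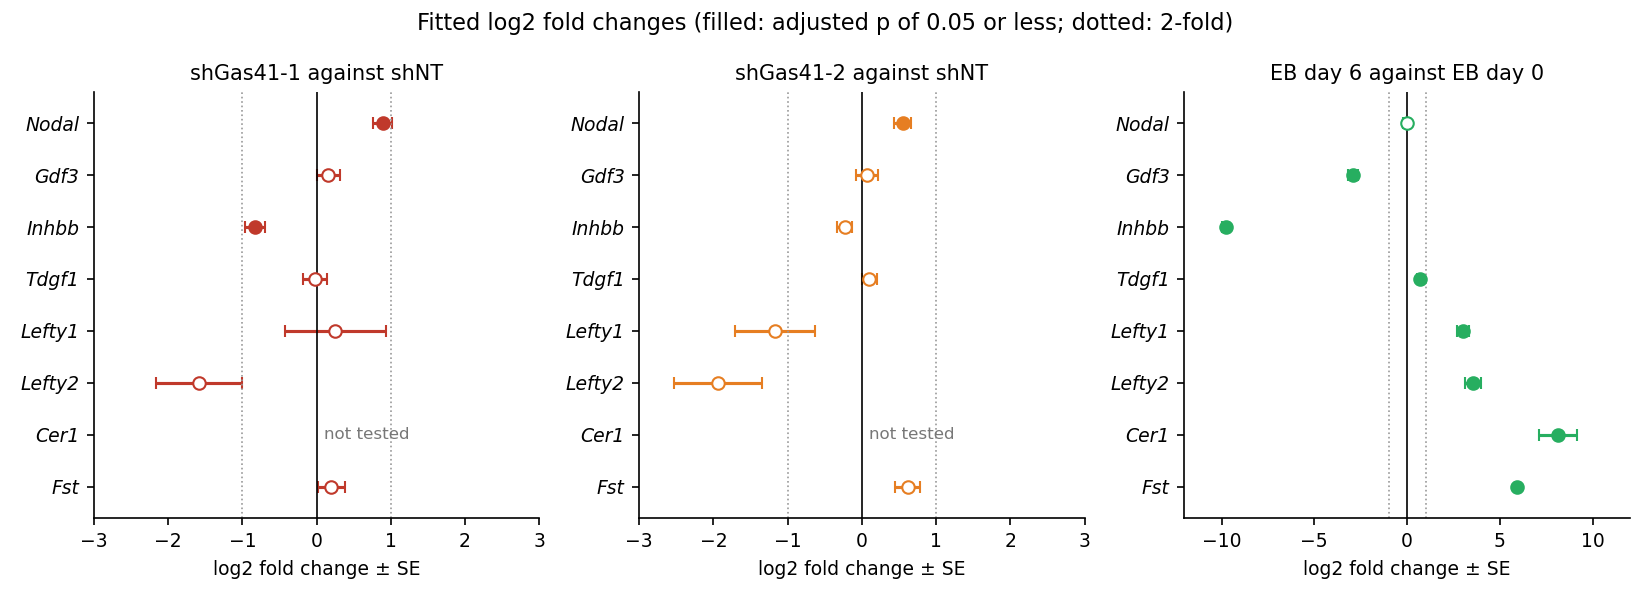
Fitted log2 fold change with its SE for the 8 genes in 3 panels, shGas41-1 against shNT, shGas41-2 against shNT, and EB day 6 against EB day 0 (the last on a wider axis), with filled points where the adjusted p was 0.05 or less and dotted lines at a 2-fold change. Nodal is filled in both KD panels and is near 0 in the EB panel, where the other 7 genes are filled.

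Lefty1 (ENSMUSG00000038793, chr1:182865153-182868531) and Lefty2 (ENSMUSG00000066652, chr1:182823239-182829234) lie next to each other on the plus strand. By the SD within groups given below, they were the most variable of the 8 genes. That SD adds 1 to the CPM, which flattens values as low as those of Cer1 in undifferentiated cells. At EB day 6 alone, the highest library over the lowest was 4.39 for Cer1, 2.3 for Lefty2 and 1.26 for Lefty1. Lefty1 was measured at 9.91, 17.9 and 40.7 CPM in shNT cells, at 13.0, 55.5 and 9.27 CPM with shGas41-1 and at 6.89 and 12.2 CPM with shGas41-2. Lefty2 stood at 15.7, 26.4 and 68.7 CPM, at 7.78, 20.9 and 6.43 CPM and at 6.77 and 11.5 CPM in the same order. The highest shNT library was thus 4.1 times the lowest for Lefty1 and 4.39 times for Lefty2, and the SD of log2(CPM + 1) within groups was 0.926 for Lefty1 and 0.823 for Lefty2. Of 14464 genes only 6 had a larger within-group SD than Lefty1 and 16 a larger one than Lefty2, and the median gene had 0.174. For the other members the SD was 0.503 for Cer1, 0.274 for Gdf3, 0.182 for Inhbb, 0.180 for Nodal, 0.171 for Tdgf1 and 0.122 for Fst.

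With that spread, neither Lefty gene passed the test in KD cells. Lefty2 was at 33.4% of shNT with shGas41-1 (log2 fold change -1.58, SE 0.58, adjusted p = 0.0895, between 0.0264 and 0.539 over 14 alternatives) and at 26.1% with shGas41-2 (log2 fold change -1.94, SE 0.59, adjusted p = 0.0758). In the first comparison it passed without shGas41-1 replicate 2 (log2 fold change -2.28, adjusted p = 0.0264) or without shNT replicate 1 (log2 fold change -1.95, adjusted p = 0.0305), whereas without shNT replicate 3 it was -0.79 (adjusted p = 0.332). Lefty1 had a log2 fold change of 0.25 (SE 0.68, adjusted p = 0.826) with shGas41-1 and of -1.17 (SE 0.54, adjusted p = 0.201) with shGas41-2. The sign of the former depended on single libraries of both groups. The value was -0.94 without shGas41-1 replicate 2, -0.12 without shNT replicate 1 and 0.94 without shNT replicate 3. Without shNT replicate 1 both genes passed with shGas41-2, Lefty1 at -1.53 (adjusted p = 0.00555, between 1.65e-05 and 0.589 over 13 alternatives) and Lefty2 at -2.30 (adjusted p = 0.000788, between 8.56e-17 and 0.333). Without shNT replicate 3 they were -0.46 (adjusted p = 0.423) and -1.12 (adjusted p = 0.0613).

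The 2 control sets offered a measure of how far these genes move with no Gas41 shRNA. In EB day 0 cells, Lefty1 was measured at 3.82 and 7.61 CPM and Lefty2 at 8.42 and 13.3 CPM, all below the 3 shNT libraries. The log2 difference of EB day 0 from shNT was -2.01 (SE 0.54, adjusted p = 0.0783) for Lefty1 and -1.77 (SE 0.54, adjusted p = 0.102) for Lefty2. Beside these stand the values against the same shNT libraries with shGas41-1 and shGas41-2, which were 0.25 and -1.17 for Lefty1 and -1.58 and -1.94 for Lefty2. For EB day 0 both passed without shNT replicate 1 (-2.37, adjusted p = 0.00547, and -2.14, adjusted p = 0.00796) or without shNT replicate 3 (-1.31, adjusted p = 0.0206, and -0.98, adjusted p = 0.0258), in ranges that reached 0.467 and 0.50 over 13 alternatives. For the other members tested the difference between control sets lay between -0.35 (Tdgf1, adjusted p = 0.106, or 0.0264 without shNT replicate 3, within 0.0264 to 0.525 over 12 alternatives) and 0.57 (Fst, adjusted p = 0.104). In that comparison no member was called or passed the adjusted p, where 0.579% of all genes were called and 2.37% passed the adjusted p. At an unadjusted p of 0.05, 4 members passed beside 4429 of 18134 genes. By DESeq2 0 members were called beside 111 genes, and 1 passed the adjusted p beside 1866 genes. The set and any batch cannot be told apart. Between the 2 shRNAs 0 members and 0% of all genes were called, and 0% passed the adjusted p in edgeR. At an unadjusted p of 0.05 this comparison had 1348 genes and 3 members, and DESeq2 called 69 genes and no member.

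Lefty1 and Lefty2 are similar in sequence and share stretches of it, which bears on how reads from these stretches were assigned. Of the 50-base windows in the exons of Lefty1, 19.4% also occurred in exons of Lefty2, and 12.5% of those of Lefty2 occurred in Lefty1. Their coding sequences were 91.8% identical over 1104 aligned bases without a gap. Reads from a stretch in which the genes do not differ could have been dropped or placed in either gene, and the deposited counts do not show which. With both genes summed into 1 row, the log2 fold change was -0.60 (adjusted p = 0.539) with shGas41-1 and -1.60 (adjusted p = 0.112) with shGas41-2.

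In undifferentiated cells the proportion of the 2 genes varied less between libraries of a group than their levels did. The ratio of Lefty2 to Lefty1 counts was 1.58, 1.47 and 1.69 in the shNT libraries, 0.599, 0.378 and 0.693 with shGas41-1 and 0.982 and 0.937 with shGas41-2. It was 2.20 and 1.75 at EB day 0 and 1.48 and 4.30 at EB day 6, where it varied more than either level. The ratio was therefore below 1 in all 5 KD libraries and above 1 in all 7 libraries with a control shRNA. It was seen after the values were known, so that it is given as a description with no test. The part of shared sequence in it was not tested.

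**Figure D3:**
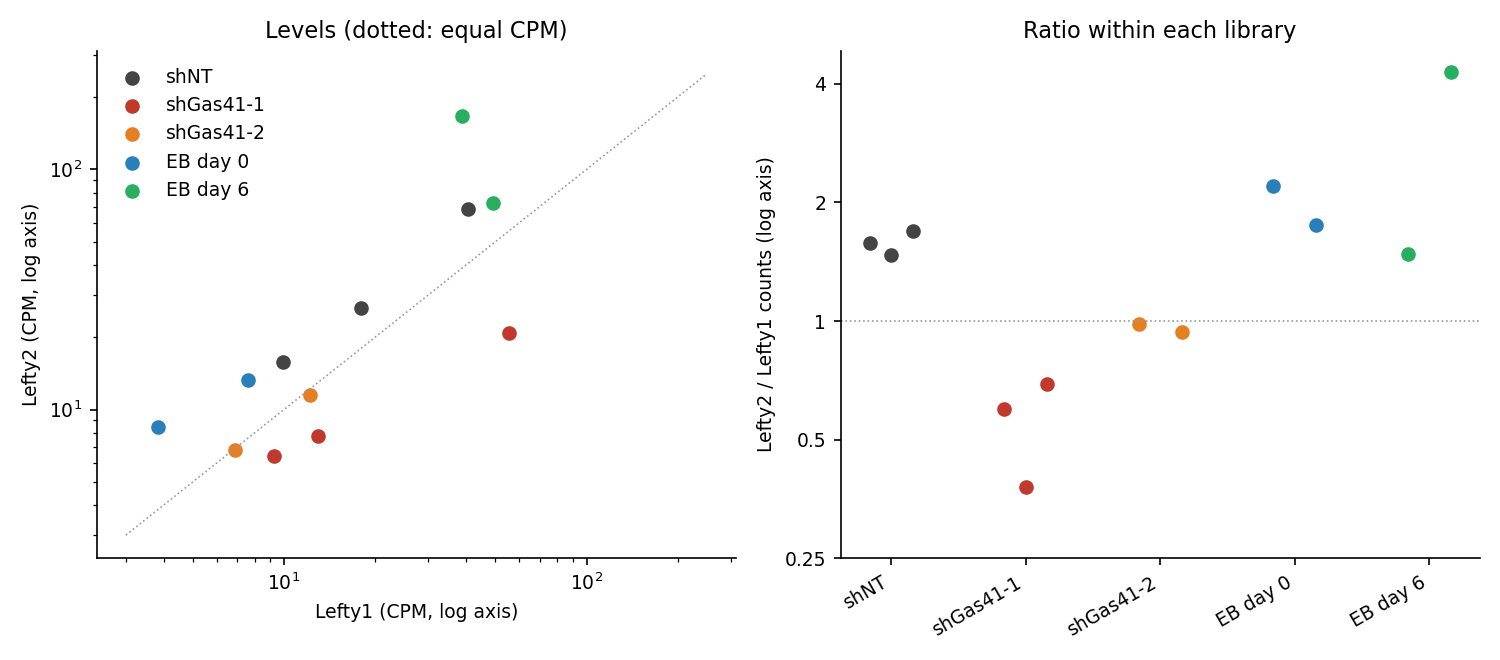
Left, Lefty2 against Lefty1 in CPM on log axes, with 1 point per library coloured by group and a dotted line at equal levels. Right, the ratio of Lefty2 to Lefty1 counts in each library on a log axis, where the shNT libraries lie between 1.47 and 1.69, those with shGas41-1 between 0.378 and 0.693 and those with shGas41-2 between 0.937 and 0.982.

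The second question was how the same genes behaved when control cells differentiated. At EB day 6, 6 of the 8 genes were called against EB day 0 and 7 passed the adjusted p alone, where 31.3% of all genes tested were called and 58.9% passed the adjusted p. Of the 6, the 4 inhibitor genes were higher (Cer1 from a level near the floor) and the ligand genes Gdf3 and Inhbb were lower, whereas 16.6% of all genes tested were called higher and 14.7% lower. Tdgf1 rose by less than 2-fold. An EB holds several cell types, and in such bulk libraries fewer cells of a type and less RNA per cell cannot be told apart.

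Inhbb showed the largest fall among the 8 genes. It had 279 and 256 CPM at EB day 0 (19920 and 16327 counts) and 0.192 and 0.378 CPM at day 6 (13 and 26 counts). This is 0.114% of the day 0 level (log2 fold change -9.78, SE 0.21, adjusted p = 2.33e-06). Gdf3 was measured at 112 and 126 CPM at day 0 and at 19.7 and 10.5 CPM at day 6. It was thus reduced to 13.4% (log2 fold change -2.90, SE 0.27, adjusted p = 0.000205). Nodal was the only ligand of the 3 that did not pass, with 74.8 and 99.8 CPM at day 0 and 92.4 and 69.5 CPM at day 6. Its groups overlapped, and its log2 fold change of -0.03 (SE 0.17, adjusted p = 0.908) took either sign when 1 library was left out (between -0.23 and 0.20).

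Tdgf1, the co-receptor gene, had 511 and 562 CPM at day 0 and 702 and 902 CPM at day 6. Both day 6 libraries were above both day 0 libraries, and the increase was 1.59-fold (log2 fold change 0.67, SE 0.14, adjusted p = 0.00644). It did not pass without EB day 0 replicate 2 (adjusted p = 0.0754) or replicate 3 (0.0944), within a range of 6.52e-06 to 0.0944 over 11 alternatives. The day 6 values also overlapped with those of the shNT libraries.

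Follistatin mRNA gave the steadiest rise. Fst was at 6.22 and 6.94 CPM at day 0 and at 372 and 395 CPM at day 6. The increase was 61.8-fold (log2 fold change 5.95, SE 0.11, adjusted p = 1.5e-06), and the day 6 libraries were close to each other. Cer1 had 3 and 2 counts at day 0 and 258 and 1153 counts at day 6 (3.82 and 16.8 CPM). The pooled rate ratio was 280 (95% exact interval 120 to 863, counting error only), and the day 6 libraries differed by more than 4-fold. Cer1 passed the count filter only through the day 6 group, so that its place among the genes called is no more than a description.

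Lefty1 went from 3.82 and 7.61 CPM at day 0 to 48.9 and 38.7 CPM at day 6, and Lefty2 from 8.42 and 13.3 CPM to 72.5 and 167 CPM. The day 6 libraries were above the day 0 libraries for both. The increases were 8.14-fold for Lefty1 (log2 fold change 3.02, SE 0.31, adjusted p = 0.000326) and 11.7-fold for Lefty2 (log2 fold change 3.55, SE 0.43, adjusted p = 0.000671). Without EB day 6 replicate 3 the log2 fold change of Lefty2 was 2.82, and without EB day 0 replicate 3 that of Lefty1 was 3.61. Summed into 1 row the 2 genes rose by 3.39 on the log2 scale (adjusted p = 0.000295). The level of Lefty1 at day 6 was nevertheless within reach of cells in ESC culture, since shNT replicate 3 held 40.7 CPM and shGas41-1 replicate 2 held 55.5 CPM. For Lefty2 both day 6 libraries were above all 10 undifferentiated libraries, the highest of which was shNT replicate 3 at 68.7 CPM. Without EB day 0 replicate 3, Lefty2 (adjusted p = 0.0534, as low as 1.76e-16 under another alternative) and Cer1 (adjusted p = 0.0717, as low as 5.04e-17) did not pass, which left 4 of the 8 genes called.

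Markers of other cell types moved with these changes at EB day 6. The 5 primitive streak markers summed to between 8.38 and 8.52 CPM at day 0 and to between 1260 and 1770 CPM at day 6, and the 4 primed epiblast markers went from between 98.2 and 114 CPM to between 1030 and 1340 CPM. The 8 primitive or visceral endoderm markers summed to 4.69 and 5.15 CPM at day 0 and to 36.9 and 114 CPM at day 6. Of the day 6 libraries, replicate 3 had the higher endoderm, streak and fibroblast sums, and replicate 2 had the higher primed epiblast sum. Replicate 3 held more Cer1, Lefty2, Tdgf1, Fst and Inhbb mRNA and less Lefty1, Nodal and Gdf3 mRNA than replicate 2. Of these endoderm markers Gata4 and Gata6 rose, Sox7 fell, and Afp and Ttr were at or near 0, with 1 or 2 markers of the 8 at 0 in each day 6 library. Cubn did not pass (log2 fold change 0.32, adjusted p = 0.553), and Apoa1 and Amn were under the count filter. The 5 fibroblast markers summed to between 10.6 and 14.4 CPM at day 0 and to between 24.3 and 29.5 CPM at day 6. The part of these cell types in the changes of the 8 genes was not tested.

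In KD cells the same sums moved less, although single markers passed the test. Endoderm markers summed to between 3.40 and 3.78 CPM in shNT cells, to between 3.74 and 6.09 CPM with shGas41-1 and to between 5.04 and 6.23 CPM with shGas41-2. Primitive streak markers summed to between 9.74 and 14.0 CPM, to between 4.99 and 8.25 CPM and to 7.94 CPM in both shGas41-2 libraries. Primed epiblast markers lay between 74.3 and 86.5 CPM, between 61.3 and 105 CPM and between 80.6 and 81.6 CPM, and fibroblast markers between 11.1 and 19.8 CPM, between 6.29 and 10.8 CPM and between 13.6 and 14.4 CPM. Of the 8 pluripotency markers, Dppa3 rose and Esrrb, Klf4 and Tbx3 fell with shGas41-1 at the adjusted p alone, and Klf4 fell with shGas41-2. Of the endoderm markers, Gata6 (log2 fold change 1.76, adjusted p = 0.0188) and Cubn (1.32, adjusted p = 0.0442) rose with shGas41-1 and Sox7 (1.23, adjusted p = 0.0292) with shGas41-2. With shGas41-1 the primed epiblast marker Fgf5 rose from a low level (0.117 to 0.466 CPM, adjusted p = 0.0388), having passed the count filter only through the KD group. The fibroblast marker Thy1 (-1.10, adjusted p = 0.0109) and the streak marker Eomes (adjusted p = 0.0343) fell with that shRNA. The part of these cells in the changes of Nodal and Inhbb was not tested.

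RefSeq promoter sequence (GRCm38.p6, a later build than that of the counts) was available here for 4 of the 8 genes, Cer1, Inhbb, Nodal and Tdgf1. Those of Inhbb and Cer1, the genes with the largest fall and the largest rise at EB day 6, are shown as the 250 bases before the start, with a match to the SMAD motif CAGAC in capitals. The promoter of Inhbb lies at chr1:119422249-119422498 and that of Cer1 at chr4:82885152-82885401, both on the minus strand.
Inhbb: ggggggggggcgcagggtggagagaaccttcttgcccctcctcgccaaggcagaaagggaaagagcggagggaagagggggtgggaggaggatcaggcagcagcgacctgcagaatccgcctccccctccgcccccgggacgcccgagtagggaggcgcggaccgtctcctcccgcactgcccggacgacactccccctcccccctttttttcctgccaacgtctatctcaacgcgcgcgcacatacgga
Cer1: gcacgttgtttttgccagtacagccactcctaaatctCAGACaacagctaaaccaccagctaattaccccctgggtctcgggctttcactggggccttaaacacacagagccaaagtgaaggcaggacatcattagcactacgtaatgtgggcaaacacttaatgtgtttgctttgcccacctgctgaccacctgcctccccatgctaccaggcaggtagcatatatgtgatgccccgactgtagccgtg
The Inhbb sequence had 68.0% GC and 21 CG dinucleotides, and the Cer1 sequence had 51.6% GC and 5 CG dinucleotides, where the medians over 32851 promoters were 52.4% and 6. CAGAC occurred once on either strand in Cer1 and in Tdgf1 and did not occur in Inhbb or Nodal, and 42.2% of all promoters hold it. The FOXH1 motifs AATCCACA and AATACACA, held by 0.718% and 0.895% of all promoters, and the TATA motif TATAAA, held by 12.4%, were in none of the 4. Nodal had 53.2% GC and 3 CG dinucleotides, and Tdgf1 42.0% GC and 7.

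Beyond the 8 genes, 38 other genes of the pathway were examined, of which 36 were listed in the tables (Gdf1 and Mstn were not analysed here). With shGas41-1, 33 were tested, 2 were called higher and 2 lower, beside 7.9% and 2.4% of all genes, and the median log2 fold change was -0.09 against 0.02 over all genes. Furin, a convertase that cleaves Nodal precursors, rose from 69.4 to 195 CPM (log2 fold change 1.58, SE 0.20, adjusted p = 0.00295). The other gene called higher was the target gene Lhx1, at 0.22 CPM against 0.0297 CPM in shNT cells, which passed the count filter only through the KD group, so that its call is no more than a description. Inhbe, another activin subunit gene, fell by 2.98 on the log2 scale (adjusted p = 0.00448), from 0.697 to 0.0822 CPM. It passed the count filter only through the shNT group, so that its call, too, is no more than a description. Eomes, a T-box target gene, fell by 1.00 (adjusted p = 0.0343) from 9.05 to 4.31 CPM. With the adjusted p alone, 2 genes of the list were higher and 5 lower, beside 10.8% and 7.73% of all genes. Past the adjusted p but under 2-fold, the convertase gene Pcsk6 fell by 0.90, the type I receptor gene Acvr1b by 0.85 and the inhibitory Smad gene Smad7 by 0.86. None of the 4 signal transducers passed.

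With shGas41-2, 32 of these genes were tested and 1 was called, beside 4.82% of all genes. This was Furin, at 204 CPM (log2 fold change 1.63, SE 0.10, adjusted p = 0.00145). The median over the list was -0.10 against -0.01 over all genes. Acvr1b had a log2 fold change of -0.68 (adjusted p = 0.0891), Smad7 of -0.54 (adjusted p = 0.108) and Eomes of -0.67 (adjusted p = 0.107), none of which passed. Furin was therefore the pathway gene called with both shRNAs, next to Nodal, which passed with both at the adjusted p alone.

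**Figure D4:**
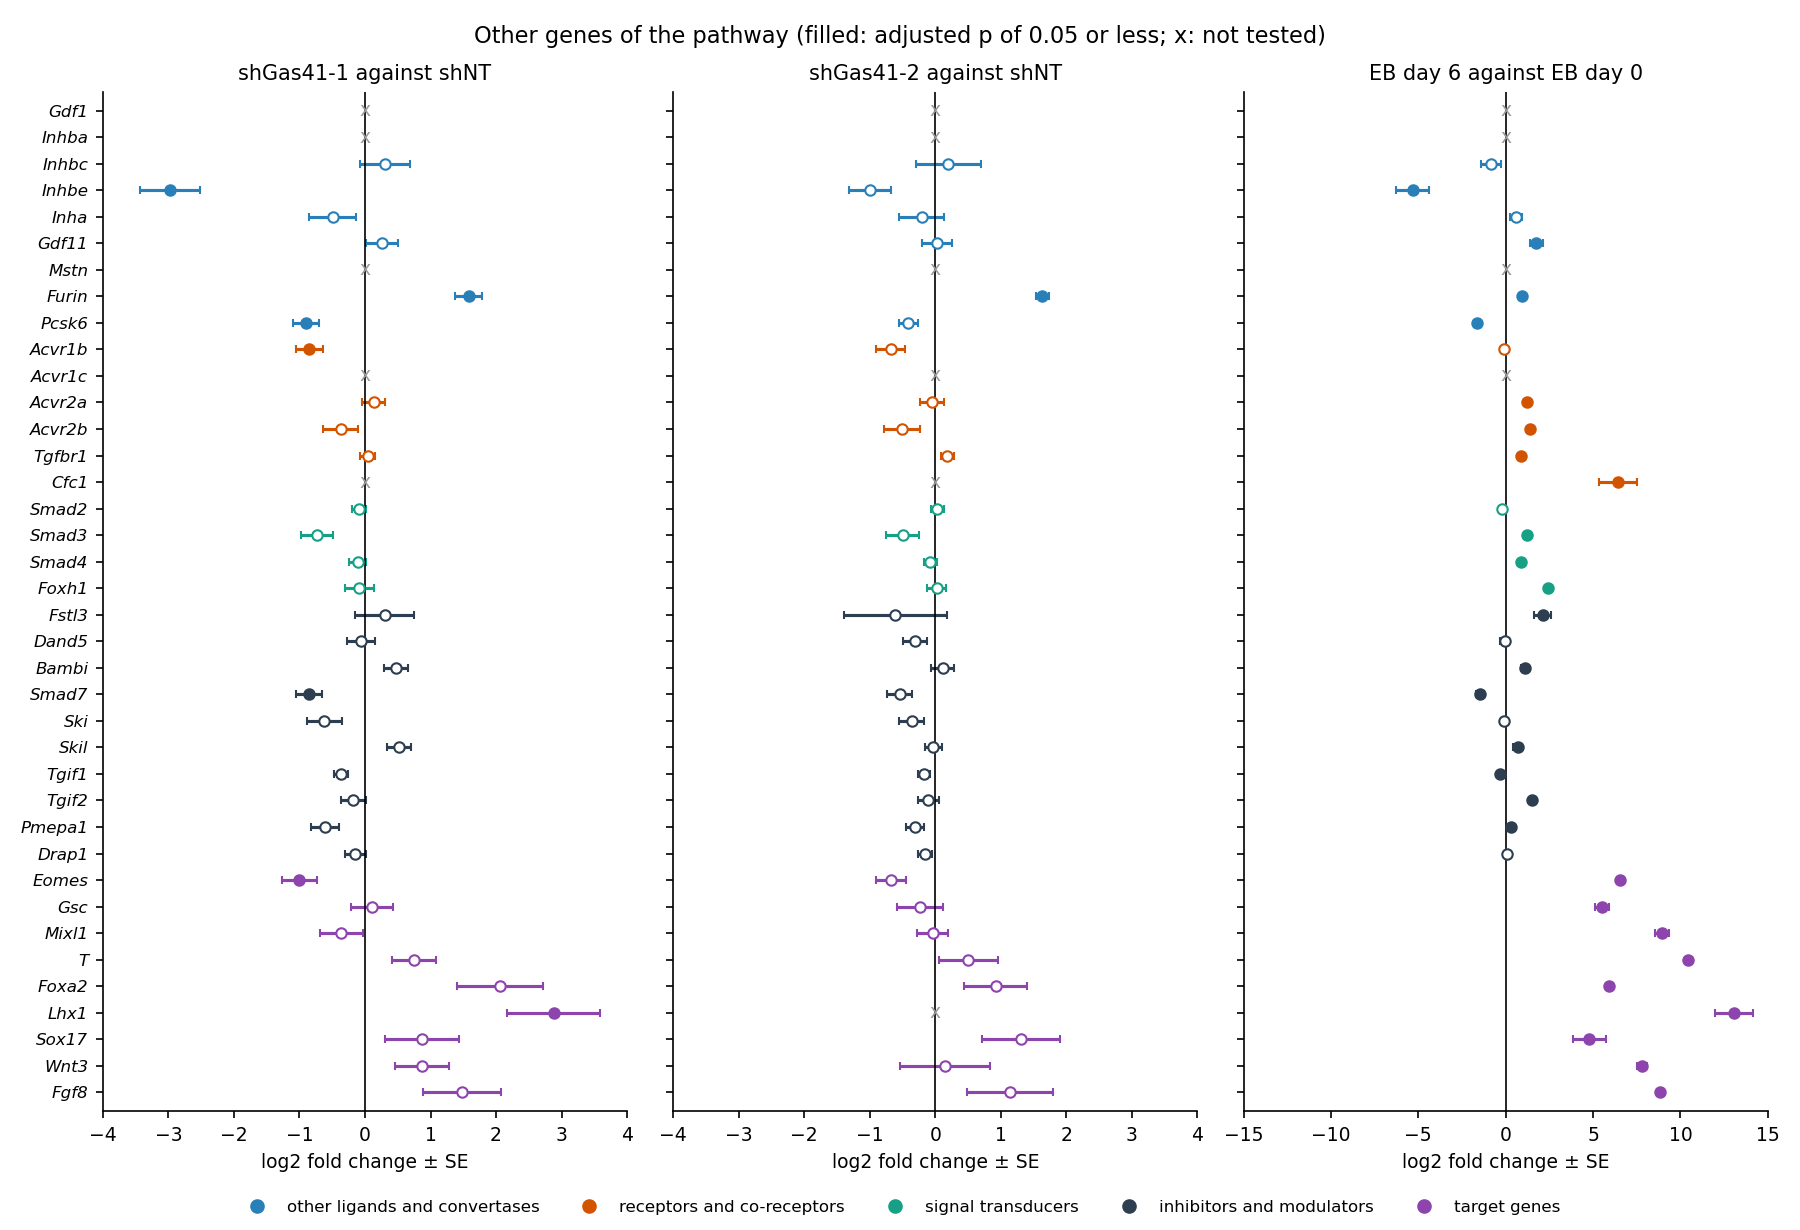
Fitted log2 fold change with its SE for 38 other pathway genes in 3 comparisons (the EB panel on a wider axis), coloured by role, filled where the adjusted p was 0.05 or less, and marked x where the gene was not tested. In the EB panel all 9 target genes are filled and lie between 4.79 and 13.08, and Furin is filled in all 3 panels.

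At EB day 6, 34 of these genes were tested, 18 were called higher and 3 lower, beside 16.6% and 14.7% of all genes, with a median log2 fold change of 1.16 against 0.00 over all genes. All 9 target genes were called higher. Among them Eomes rose from 6.35 to 548 CPM, the T-box gene T from 0.342 to 451 CPM and Mixl1 from 0.934 to 431 CPM, and these 3 are also primitive streak markers. Lhx1 (from 0.035 to 315 CPM), Fgf8 (from 0.208 to 89.4 CPM), Wnt3 (from 0.347 to 72.7 CPM), Gsc (from 0.719 to 31.0 CPM), Foxa2 (from 0.378 to 22.0 CPM) and Sox17 (from 0.256 to 6.63 CPM) completed the list. Lhx1, the co-receptor gene Cfc1 and the inhibitor gene Fstl3 (from 0.0891 to 0.374 CPM) passed the count filter only through the day 6 group. Inhbe (from 0.687 to 0.0145 CPM) passed it only through the day 0 group. The calls of these genes are no more than a description. On the side of reception, Acvr2a (log2 fold change 1.20), Acvr2b (1.41), Smad3 (1.24) and Foxh1 (2.45), the last a DNA-binding partner of Smad2, were called higher. Cfc1, a co-receptor gene related to Tdgf1, went from 0.0219 to 1.98 CPM, while Acvr1b and Smad2 did not pass. Of the inhibitors and modulators, Fstl3 (log2 fold change 2.13), Bambi (1.11) and Tgif2 (1.53) were called higher and Smad7 (-1.45) lower. Among the ligands and convertases, Gdf11 (1.76) was called higher and Inhbe (-5.31) and Pcsk6 (-1.63) lower, while Furin (0.92) passed the adjusted p alone.

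Genes whose pattern was closest to each member were found by Pearson's r of log2(CPM + 1) over the 12 libraries. For the genes that changed at EB day 6 it follows mostly the difference between EB day 6 and undifferentiated cells. For Inhbb these were Mras (r = 0.999) and Accsl (0.998), for Fst Fgf8 and Sp8 (both 0.996), for Cer1 Bmper and Col23a1 (both 0.999), and for Gdf3 Noc3l (0.995) and Nr0b1 (0.993). Lefty2 was closest to Rilpl1 (0.964) and Slc39a1-ps (0.957), and Lefty1 to Kctd20 (0.910) and Ap3b2 (0.904). Nodal was closest to Pax6 (0.957) and Gadd45g (0.955), and Tdgf1 to Strap (0.942) and Higd1a (0.932). The points share libraries, groups and depth, so that these values describe the 12 libraries and carry no test.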

How the data were processed

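RNA-seq libraries were prepared by the authors with TruSeq kits and sequenced on a NextSeq instrument. Reads were mapped by the authors to mm9 with TopHat2 (version 2.0.10 in the submitters' processing notes) and assigned to genes by htseq-count. The deposited values used here are raw counts. Strand setting, treatment of reads with several matches and read length are not given in the sources used here. Beside the counts the authors deposited columns of their own edgeR comparisons (fold changes with p-value and FDR), which were not used. The ChIP-seq data were not analysed here. Genes with no count in any library of a table are not listed in it. The columns called ESC in the EB table were read as EB day 0, since the labels of those samples name that table.

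Counts were tested here in R 4.3.3 with edgeR 4.0.16 (filterByExpr with minimum count 10 and minimum total 15, TMM, glmQLFit, then glmQLFTest), and p-values were adjusted by Benjamini-Hochberg over all genes tested. Each comparison used the libraries of its 2 groups, except that of the 2 shRNAs, which used the 8 shNT and KD libraries. Adjusted p-values in the text are from this quasi-likelihood test unless DESeq2 1.42.0 is named. Folds are after TMM scaling and can differ from ratios of CPM. CPM is the count scaled to the library's total, and RPKM divides it by union exon length from GENCODE on NCBIM37. The ratio of Cer1 counts has an exact conditional interval. The script was tested on simulated data.

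All 8 members are described, with every other gene of the pathway list called in a comparison and the 2 closest genes to each member by r (mean CPM of at least 1, no Gm, Rik or clone names). A gene of that list is not reported here and is left out of its counts. The members and gene lists were chosen with earlier results of these data known. The alternatives were other scaling, DESeq2, no filter, halved counts (in case both mates of a pair were counted), all 12 libraries in 1 fit, a test of the 2-fold change itself, the replicate number as a block, Lefty1 and Lefty2 summed, and each library left out.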

Additional observations from a re-analysis of the deposited data

How the results depend on the processing

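Of 441 log2 fold changes of members under alternatives, 388 kept their direction and side of the threshold, 21 changed sign, 7 lost and 25 gained an adjusted p of 0.05 or less. With shGas41-1, 1 member was called without a filter (Lefty2) and 0 to 1 with a library left out. Over all genes, 2059 were called without a filter with shGas41-1 and 1076 with shGas41-2. With shGas41-2, 1 was called without a filter and 0 to 2 with a library left out, and 2 passed the adjusted p alone by DESeq2 (beside 2884 genes), 3 without a filter, 2 with all 12 libraries in 1 fit and 0 to 4 with a library left out. At EB day 6, 4 to 6 were called and 4 to 7 passed with a library left out, where a lone library is assumed to vary like the other group. Between the shRNAs 1 passed by DESeq2 (Inhbb, beside 169 genes). Apart from DESeq2, the shares of all genes past the adjusted p alone under these alternatives are not given here. For EB day 0 against shNT, 2 were called without a filter and 0 to 2 with a library left out, and 1 passed by DESeq2 (beside 1866 genes), 2 without a filter and 0 to 3 with a library left out.

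Same-numbered deviations correlated between -0.387 and 0.336, which does not settle whether the replicate numbers pair the libraries. For shGas41-2 against shNT both correlations were positive (0.336 and 0.239). They are not separate observations, since the deviations of 2 libraries from their group mean mirror each other. With the replicate number as a block, 1 member was called and 5 passed with shGas41-2, 2 were called and 2 passed for EB day 0 against shNT, and Gdf3 changed sign to -0.07 and 0.06 in these comparisons. The block left shNT replicate 3 without a partner in the first and shNT replicate 1 in the second. Both fits therefore rest on very little residual spread. The lowest adjusted p-values given above for Nodal, Lefty1, Lefty2 and Fst with shGas41-2 came from the block. It moved all genes called from 888 to 1334 with shGas41-2 and from 105 to 299 for EB day 0 against shNT. With shGas41-1 they went from 1882 to 1321 and at EB day 6 from 5726 to 5631.

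Signs changed only in values that did not pass. With shGas41-1, Lefty1 was -0.60 when summed with Lefty2 and between -0.94 and 0.94 with a library left out (-0.12 without shNT replicate 1), and Tdgf1 was 0.04 or 0.06 within -0.20 to 0.09. With shGas41-2, Gdf3 was -0.02 by library size alone and between -0.06 and 0.16 with a library left out (-0.01 without shGas41-2 replicate 2). At EB day 6, Nodal was 0.16 without EB day 6 replicate 3 and between -0.23 and 0.20 with a library left out. Between the shRNAs Lefty2 was between -0.80 and 0.34 (0.00 without shGas41-2 replicate 1). For EB day 0 against shNT, Gdf3 was 0.01 or 0.03 within -0.19 to 0.05, Inhbb 0.00 within -0.10 to 0.01 and Nodal between -0.14 and 0.30. Over all genes, calls went from 1882 to 312 when the 2-fold change itself was tested with shGas41-1, from 888 to 8 with shGas41-2 and from 105 to 1 for EB day 0 against shNT, and with a library left out they lay between 1222 and 2049, 287 and 1467, and 1 and 322, and between 3710 and 5958 at EB day 6. For EB day 0 against shNT, 174 genes were called without a filter and 35 with all 12 libraries in 1 fit, and between the shRNAs 69 by DESeq2 and 9 with all 12 libraries. The cause of these changes was not tested, apart from the smaller number of libraries. Groups of 2 or 3 libraries and the few Cer1 counts in undifferentiated cells limit what can be called.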
